A study of Mus musculus with 5 samples.

Results

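Interleukins and receptor chains other than IL-1 and IL-6 and their own receptors were followed in 3T3-L1 adipocytes through 10 genes, out of 19505 genes named on the arrays. They are *Il18*, its soluble inhibitor gene *Il18bp*, *Il33*, *Il34* and *Il15* on the side of the secreted proteins, and *Il15ra*, *Il4ra*, *Il13ra1*, *Il10rb* and *Il17ra* on the side of the receptors. The genes were selected by name, with earlier results of these data known, and the probe set of each was chosen by the highest mean over the 5 arrays. Each of the 10 genes had 1 probe set, so that choice excluded nothing. The levels and changes below are therefore given as a description of these genes and not as support for their selection.

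RNA came from 3T3-L1 cells, a clonal mouse preadipocyte line that turns into fat-storing adipocytes when given a hormone cocktail. In 3 samples (MM-3T3-L1s), confluent preadipocytes had shared medium for 48 h with the human myeloma line MM.1S across a transwell membrane with 0.4 µm pores. In 2 control samples, preadipocytes spent the same 48 h in that medium (RPMI-1640 with serum) alone. The myeloma cells were then removed and both groups were differentiated for 7 days, with 0.5 mM IBMX, 1 µM dexamethasone and 5 µg/mL insulin for 4 days, insulin alone for 2 days and basal medium for 1 day, so every array reads cells that had seen a glucocorticoid and that had been apart from myeloma cells for those 7 days. The samples are replicates of a single cell line, and whether they came from separate cultures is not stated, so errors and p-values reflect how far these arrays differ from each other and nothing wider, and their number limits the precision.

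Interleukins are secreted signals that immune and stromal cells exchange, and adipose tissue both makes and senses them. IL-18 and IL-33 belong to the IL-1 family by structure. IL-18 is made as an inactive precursor that caspase-1 cleaves, and IL-18 binding protein captures the mature cytokine outside the cell, whereas IL-33 is stored in the nucleus and acts when released, through the receptor ST2. IL-34 shares the receptor CSF1R with the macrophage growth factor CSF1. IL-15 is usually shown to lymphocytes while bound to IL-15Rα on the cell that makes it. IL-4Rα pairs with IL-13Rα1 to form the receptor that non-blood cells use for IL-4 and IL-13, which signals through STAT6. IL-10Rβ is the shared chain of the receptors for IL-10, IL-22 and the type III interferons, and IL-17RA is the shared chain of the IL-17 receptors, which pairs with IL-17RC and recruits the adaptor encoded by *Traf3ip2*.

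Values are log2 signals from Clariom S Mouse arrays, so a difference of 1 is a doubling. They were compared in one limma fit across all 22206 probe sets. A gene is called higher or lower in MM-3T3-L1s where its unadjusted p was at most 0.05 and its fold change above 1.5, the limits of the study's methods, and "called" has only that sense. No probe set reached an adjusted p (Benjamini-Hochberg) below 0.05 with limma, where 1684 had an unadjusted p of 0.05 or less, and the test of the study's methods left 2. Any 2 arrays correlated at r of 0.985 to 0.993 across probe sets. A level of 3.59 was taken as background, the 95th percentile of 1450 genes for smell, pheromone and taste receptors, which fat cells should lack, and all 10 interleukin and receptor genes had a mean above it. All 11 measured markers of adipocytes, the labelled cell type, had a mean above that level. *Adipoq* (adiponectin) was at 11.79, 11.86 and 11.79 in MM-3T3-L1s and 11.81 and 11.67 in control 3T3-L1s. So had 7 of 10 measured preadipocyte and fibroblast markers, among them *Dlk1* (mean 10.21) and *Col3a1* (10.14). These levels therefore do not show how fully the cultures had differentiated. Of the adipocyte markers, only *Retn* (resistin) was called, lower in MM-3T3-L1s with a log2 fold change of -0.63.

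*Il18* was lower in MM-3T3-L1s and was the only one of the 10 genes to be called, while none was called higher and 9 were neither. Over all probe sets, 0.91% were called higher and 1.44% lower, and the counts called in each list below stand beside those shares. By position alone, 1 of the 10 genes (*Il4ra*) had all 3 exposed arrays above the 2 controls, as did 11.9% of all probe sets, and 1 (*Il18*) had them below, as did 12.2% of all probe sets. The median log2 fold change of the 10 genes was 0.060, and that of all probe sets was 0.014. Adjusted p-values from limma for these genes ran between 0.606 and 0.926.

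**Figure D1:**
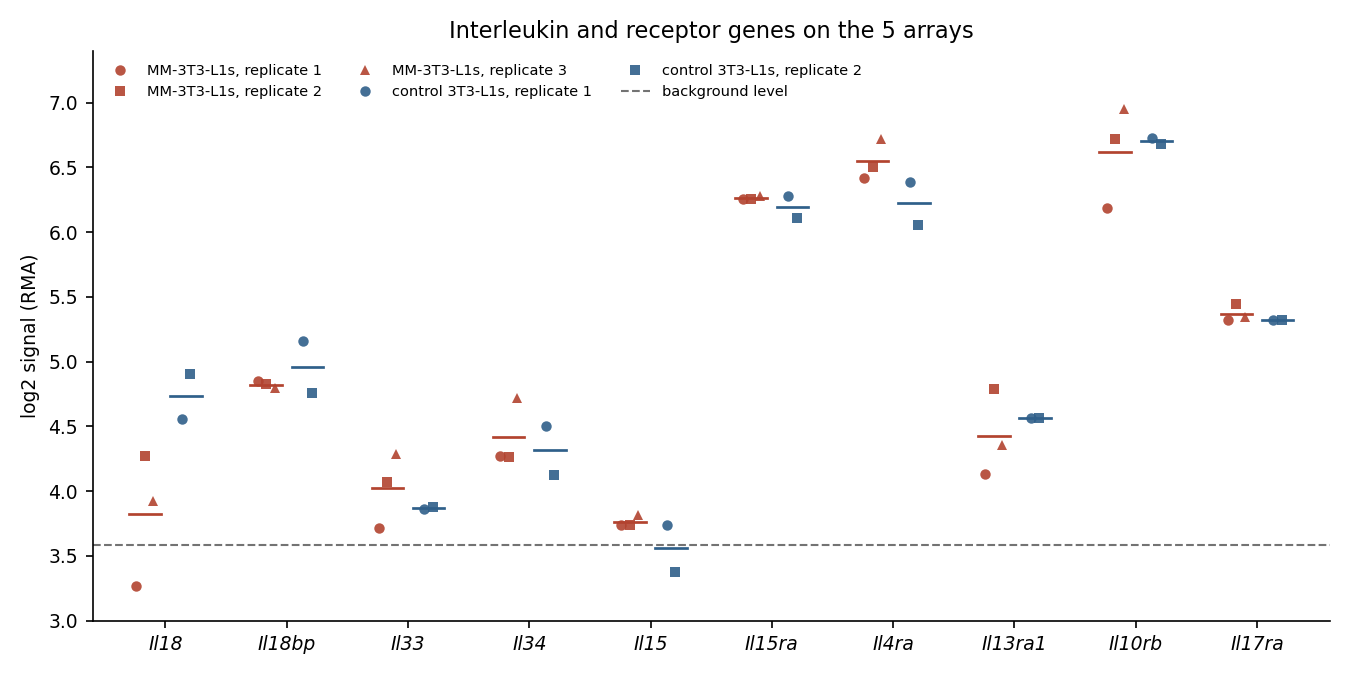
Log2 signal (vertical axis) of the 10 genes on each array, with MM-3T3-L1s in red on the left and control 3T3-L1s in blue on the right of each gene, a bar at the group mean and a dashed line at the background level of 3.59. The red points of *Il18* (3.27, 4.27 and 3.92) all lie below the blue ones (4.56 and 4.91), and the groups overlap for the other genes except *Il4ra*. Levels of different genes come from different probes and are not comparable with each other.

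*Il18* had log2 signals of 3.27, 4.27 and 3.92 in MM-3T3-L1s and of 4.56 and 4.91 in control 3T3-L1s. MM-3T3-L1s averaged 3.82 ± 0.51 (SD, n = 3), against 4.73 ± 0.25 (SD, n = 2) for control 3T3-L1s. The log2 fold change was -0.91 (SE 0.31, 95% interval -1.66 to -0.15), or 1.88-fold lower. The exposed arrays were spread over 1.00 log2 units, more than the change itself, and the lowest of them was the only array on which the gene read below the background level. With the test of the study's methods, which uses the variance of this gene alone, *Il18* was not called. Nor was it called without MM.1S replicate 3 (-0.96), without control replicate 1 (-1.09) or without control replicate 2 (-0.73), where the values are log2 fold changes, and each of those fits has fewer arrays.

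*Il18bp*, whose product neutralises IL-18, read 4.85, 4.83 and 4.79 in MM-3T3-L1s and 5.16 and 4.76 in control 3T3-L1s. The exposed arrays agreed within 0.057, while the control arrays lay 0.40 apart on either side of them. The log2 fold change was -0.13 (SE 0.15, 95% interval -0.50 to 0.23), an interval that lies within a 1.5-fold change either way. For the receptor of IL-18, *Il18r1*, the ligand-binding chain, was below the background level on every array (1.86, 2.10 and 2.03 in MM-3T3-L1s, 2.10 and 2.16 in controls). *Il18rap*, the accessory chain, read 3.68, 2.99 and 3.20 in MM-3T3-L1s and 3.96 and 3.43 in controls.

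Of the genes that process IL-18, *Casp1*, which encodes the protease that cleaves it, lay below the background level on all arrays at 3.18, 2.77 and 2.29 in MM-3T3-L1s and 2.81 in both controls. Of the 10 measured genes for inflammasome parts and IL-18 processing, 5 had a mean above the background level and none was called. *Gsdmd*, encoding the pore protein gasdermin D, alone had an unadjusted p under 0.05, with 5.25, 5.06 and 4.71 in MM-3T3-L1s and 5.38 and 5.64 in controls (log2 fold change -0.50, SE 0.19). *Pycard*, encoding the adaptor ASC, varied most among the exposed arrays, with 4.26, 3.71 and 5.43 in MM-3T3-L1s against 4.28 and 4.00 in controls. The median log2 fold change of the list was 0.15.

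*Il33* read 3.72, 4.07 and 4.29 in MM-3T3-L1s and 3.86 and 3.88 in control 3T3-L1s. The exposed arrays lay on both sides of the controls, which differed by only 0.019, and the log2 fold change was 0.16 (SE 0.18, 95% interval -0.30 to 0.61). *Il1rl1*, the gene of its receptor ST2, was not analysed here, because the probe annotation used gave its name to no probe set. The study reports *Il1rl1* among its top decreases in exposed adipocytes on its microarray. Its probe set may be among those unnamed here, so that decrease could not be checked. *Il1rap*, the accessory chain that ST2 shares with the IL-1 receptor, was well above background at 5.99, 6.01 and 5.73 in MM-3T3-L1s and 5.87 and 6.08 in controls (log2 fold change -0.069, SE 0.14).

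*Il34* had log2 signals of 4.27, 4.26 and 4.72 in MM-3T3-L1s and 4.51 and 4.13 in control 3T3-L1s. Both groups covered much the same range, and the log2 fold change was 0.10 (SE 0.20, 95% interval -0.39 to 0.60). Its receptor gene *Csf1r*, which also marks macrophages, stayed below the background level on every array, between 2.74 and 3.04 in MM-3T3-L1s and at 2.96 in both controls, and *Ptprz1*, the gene of a second receptor of IL-34, read between 1.51 and 2.24 in MM-3T3-L1s and 1.81 and 1.69 in controls.

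*Il15* lay close to the background level, at 3.74, 3.74 and 3.82 in MM-3T3-L1s and 3.74 and 3.38 in control 3T3-L1s. The value 3.74 is identical on 3 arrays to the last deposited digit, 1 of them a control, and control replicate 2 alone fell below the background level. The log2 fold change was 0.21 (SE 0.14, 95% interval -0.14 to 0.56). *Il15ra*, which encodes the chain that presents IL-15, read 6.25, 6.25 and 6.28 in MM-3T3-L1s and 6.28 and 6.11 in controls (log2 fold change 0.069, SE 0.11, 95% interval -0.21 to 0.34). The partner chain gene *Il2rb*, a lymphocyte receptor subunit, was below background on all arrays at 2.91, 3.12 and 3.14 in MM-3T3-L1s and 3.31 and 3.48 in controls, and *Il2rg* was not analysed here.

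*Il4ra* had the largest increase among the 10 genes and did not pass the test. Its log2 signals were 6.42, 6.50 and 6.72 in MM-3T3-L1s and 6.39 and 6.06 in control 3T3-L1s. All exposed arrays lay above both controls, with MM.1S replicate 1 and control replicate 1 the closest pair, and the log2 fold change was 0.32 (SE 0.16, 95% interval -0.07 to 0.72, adjusted p = 0.677 from limma). *Il13ra1*, the partner chain, read 4.14, 4.79 and 4.36 in MM-3T3-L1s and 4.56 on both control arrays, so that the exposed arrays surrounded the controls (log2 fold change -0.14, SE 0.20, 95% interval -0.64 to 0.37). *Il13ra2*, which encodes the decoy receptor of IL-13, lay below background at 2.55, 2.62 and 2.16 in MM-3T3-L1s and 3.04 and 2.66 in controls. *Stat6*, the transcription factor of this receptor, had a log2 fold change of -0.22 (SE 0.15).

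**Figure D2:**
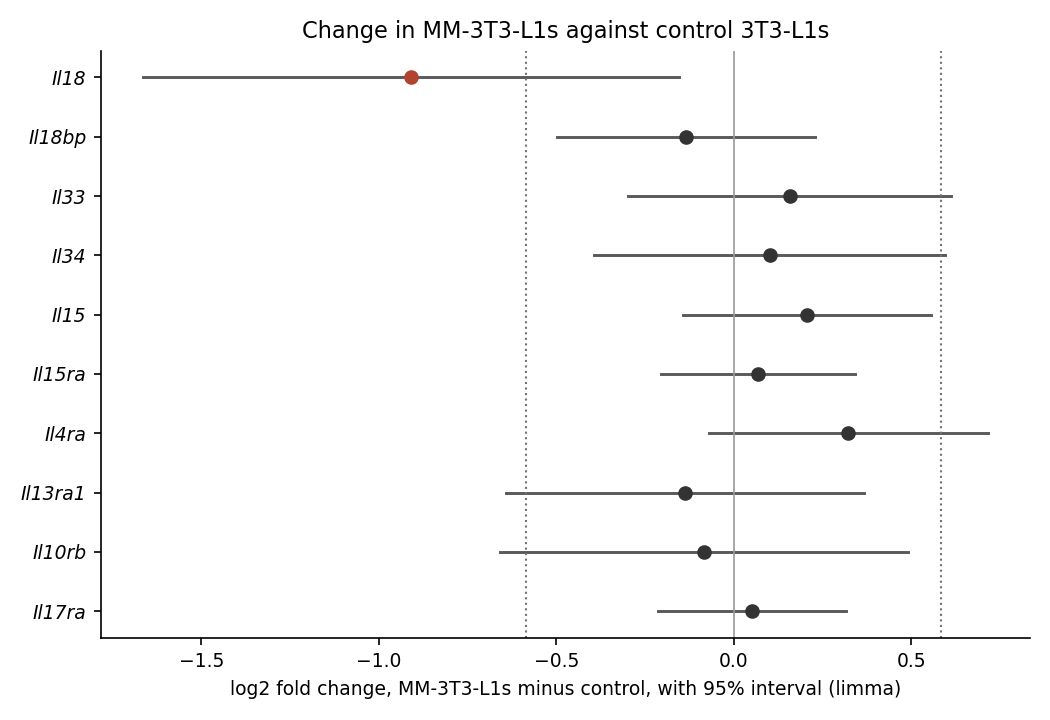
Log2 fold change of each gene in MM-3T3-L1s against control 3T3-L1s (points) with its 95% interval from limma (lines), where dotted lines mark a 1.5-fold change either way. *Il18* (red, -0.91) is the only gene called, and the intervals of 4 genes, *Il18bp*, *Il15*, *Il15ra* and *Il17ra*, lie wholly between the dotted lines.

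*Il10rb* read 6.19, 6.72 and 6.95 in MM-3T3-L1s and 6.73 and 6.68 in control 3T3-L1s. MM.1S replicate 1 was the lowest array and MM.1S replicate 3 the highest, with the controls 0.051 apart between them, and the log2 fold change was -0.084 (SE 0.23, 95% interval -0.66 to 0.49). *Il10ra*, the chain specific to IL-10, was below background on every array, between 2.12 and 2.94 in MM-3T3-L1s and at 2.14 and 2.09 in controls. *Socs3*, a feedback inhibitor that IL-10 induces in macrophages, did not differ beyond its spread, with 4.07, 4.05 and 4.39 in MM-3T3-L1s and 4.26 and 4.03 in controls.

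*Il17ra* varied least of the 10 genes, over 0.13 log2 units on the 5 arrays. It read 5.32, 5.45 and 5.35 in MM-3T3-L1s and 5.32 on both control arrays, and the value of 5.32 was the same to the last digit on 3 arrays. The log2 fold change was 0.052 (SE 0.11, 95% interval -0.21 to 0.32). *Il17rc*, the partner chain, read 7.27, 7.07 and 7.26 in MM-3T3-L1s and 7.52 and 7.49 in controls, with the exposed arrays below both controls and a log2 fold change of -0.31 (SE 0.12), short of the 1.5-fold limit. *Traf3ip2*, the gene of the adaptor of this receptor, had a log2 fold change of -0.032 (SE 0.20).

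Across the 10 genes, MM.1S replicate 3 was the single highest array for 6 and MM.1S replicate 1 for none. MM.1S replicate 1 was the single lowest array for 4 and control replicate 2 for 5. Over all probe sets, MM.1S replicate 3 was highest for 26.0% and MM.1S replicate 1 for 17.8%, while MM.1S replicate 1 was lowest for 18.0% and control replicate 2 for 20.9%. MM.1S replicate 3 also had the smallest SD over probe sets, 2.32, against 2.37 in both other exposed arrays and 2.39 and 2.42 in the controls, and the highest median over those smell, pheromone and taste receptor genes, 2.30, against 2.19 and 2.24 in the other exposed arrays and 2.17 and 2.13 in the controls. The part of these array differences in the levels of the 10 genes was not tested. Identical values on 2 or more arrays occurred in 4 of the 10 genes (*Il15*, *Il15ra*, *Il13ra1* and *Il17ra*) and in 27.3% of all probe sets, so an SD of 0 in such a pair of controls is a property of the deposited summary values and does not measure their spread. The SE from limma draws on the variances of all probe sets and is not 0 for these genes.

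The genes with the pattern most like that of *Il18* were sought among 12135 named genes above background by the Euclidean distance between log2 signals, each centred on its own mean over the 5 arrays. The nearest were *Pcdh18*, a protocadherin, at a distance of 0.20, *Pms1*, a DNA mismatch repair gene, at 0.30, and *Cfap300*, a cilium gene, at 0.32. *Pcdh18* read 3.84, 4.70 and 4.49 in MM-3T3-L1s and 4.91 and 5.47 in control 3T3-L1s. For *Il4ra* the nearest were *2410004P03Rik* (0.031), *Zic4*, a zinc finger gene (0.038), and *Gm960* (0.078), and *Zic4* read 5.97, 6.01 and 6.27 in MM-3T3-L1s and 5.94 and 5.57 in controls. In each case MM.1S replicate 1 was the lowest of the exposed arrays, as it was for *Il18* and *Il4ra*. Choosing genes by those patterns brings this about, so it adds no information.

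Of 25 other interleukin ligand genes measured, 10 had a mean above the background level, 1 was called higher, none lower and 24 were neither. The called gene was *Il10*, an anti-inflammatory cytokine, at 2.73, 3.08 and 2.42 in MM-3T3-L1s and 2.24 and 1.89 in control 3T3-L1s (log2 fold change 0.68, SE 0.22). All 5 of its values lay below the background level, and it was not called with the test of the study's methods or without any of 4 of the arrays, MM.1S replicates 1 and 2 and both controls. *Tslp*, which encodes an epithelial and stromal cytokine, read 4.74, 4.72 and 4.77 in MM-3T3-L1s and 4.68 and 5.60 in controls, where control replicate 2 alone stood apart. A mean above the background level is no proof of transcription, since *Il13* and *Il17a*, cytokines of lymphocytes, also read above it (4.35, 4.89 and 4.90 for *Il13* in MM-3T3-L1s, 5.33 and 4.60 in controls). The median log2 fold change of these ligands was 0.055.

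Of 27 other receptor genes measured, 7 had a mean above the background level and none was called in either direction. *Il17rc* and *Il2rb*, described above, had an unadjusted p under 0.05 at less than a 1.5-fold change. *Il3ra*, the α chain of the IL-3 receptor, was above background at 6.78, 6.76 and 6.74 in MM-3T3-L1s and 6.66 and 6.47 in controls (log2 fold change 0.20, SE 0.11). *Crlf2*, a chain of the TSLP receptor, read 5.07, 4.95 and 5.08 in MM-3T3-L1s and 4.96 and 5.00 in controls. The median log2 fold change of the receptors was 0.026.

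Of 21 measured genes of signaling adaptors, kinases and STATs, 20 lay above background and none was called. *Irs2*, an adaptor of the insulin and IL-4 receptors, read 9.05, 9.13 and 9.02 in MM-3T3-L1s and 8.85 and 8.60 in control 3T3-L1s (log2 fold change 0.34, SE 0.12), and *Jak2*, a kinase of cytokine receptors, 7.31, 7.53 and 6.97 in MM-3T3-L1s and 7.56 and 7.96 in controls (log2 fold change -0.49, SE 0.21). Of 16 SOCS genes and other inhibitors, 1 was called, *Socs7*, a less studied SOCS family member, lower at 5.57, 5.81 and 6.04 in MM-3T3-L1s and 6.20 and 6.65 in controls (log2 fold change -0.61, SE 0.20). *Socs7* lost its call with the test of the study's methods, after a further quantile normalization (-0.54), without MM.1S replicate 1 (-0.50), without MM.1S replicate 2 (-0.62) and without control replicate 2 (-0.39). The median log2 fold change was -0.013 for the signaling list and -0.044 for the inhibitors.

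Of 17 genes known to respond to IL-17, 5 were called higher in MM-3T3-L1s, beside 0.91% of all probe sets, none lower and 12 were neither. The median log2 fold change of these genes was 0.33. Several of them are reported by the study from these samples, which makes their direction no independent evidence, and all also respond to other inflammatory signals. *Lcn2*, the iron-carrier-binding protein lipocalin-2, read 10.80, 11.02 and 10.71 in MM-3T3-L1s and 9.35 and 9.88 in control 3T3-L1s. *Ccl20*, a chemokine for cells with CCR6, read 4.87, 5.05 and 5.60 in MM-3T3-L1s and 4.05 and 4.30 in controls (log2 fold change 1.00, SE 0.24). *Il6* read 5.93, 5.79 and 5.21 in MM-3T3-L1s and 4.54 and 4.81 in controls (log2 fold change 0.97, SE 0.24). All exposed arrays lay above both controls for each of these, as for the neutrophil chemokine genes *Cxcl1* (log2 fold change 0.94, SE 0.28) and *Cxcl5* (0.65, SE 0.21). Across the list this held for 7 of the 17 genes, beside 11.9% of all probe sets. For the called genes, position and call come from the same values, so the position adds no support.

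Other genes of the same list were not called. *Nfkbiz*, which encodes a cofactor that IL-17 induces, had a log2 fold change of 0.055 (SE 0.14), *Zc3h12a*, which encodes the RNase Regnase-1, -0.063 (SE 0.35), and *Ccl2*, a monocyte chemokine gene, 0.13 (SE 0.21). *Csf3* and *Cebpb*, which encode the growth factor G-CSF and a transcription factor, lay above both controls on every exposed array at less than a 1.5-fold change (log2 fold changes 0.42 and 0.37). The count of 5 was 3 with the test of the study's methods, and it was 1 without control replicate 1, where *Ccl20* (0.87), *Il6* (0.83), *Cxcl1* (0.65) and *Cxcl5* (0.40) were not called. *Cxcl5* was also not called without MM.1S replicate 1 (0.61) or without MM.1S replicate 2 (0.56).

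**Figure D3:**
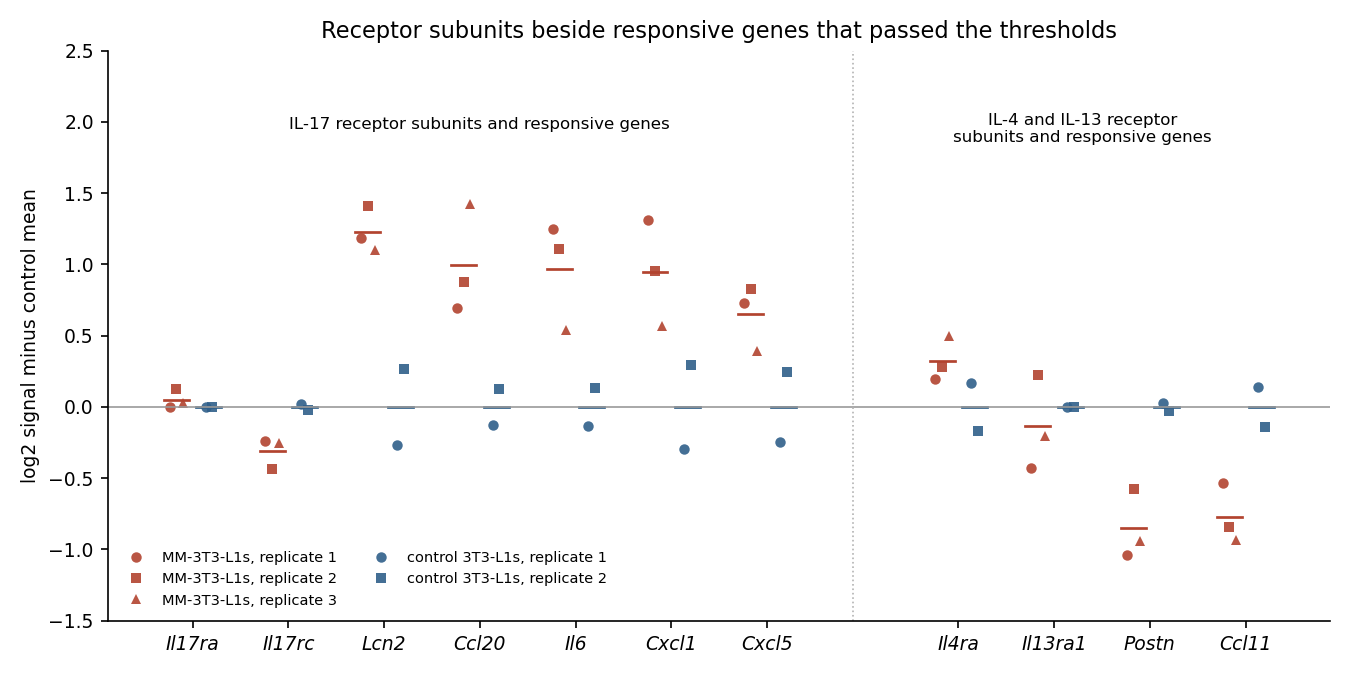
Log2 signal on each array minus the control mean of that gene (vertical axis), for receptor subunit genes and for the responsive genes that were called, with MM-3T3-L1s in red on the left and controls in blue on the right and a bar at the group mean. *Il17ra* (0.052) and *Il4ra* (0.32) were not called, *Lcn2*, *Ccl20*, *Il6*, *Cxcl1* and *Cxcl5* were called higher, and *Postn* (-0.85) and *Ccl11* (-0.77) were called lower.

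Of 13 genes known to respond to IL-4 and IL-13, 2 were called lower in MM-3T3-L1s, beside 1.44% of all probe sets, none higher and 11 were neither. Their median log2 fold change was -0.010. *Postn*, which encodes the matrix protein periostin, read 8.36, 8.82 and 8.46 in MM-3T3-L1s and 9.42 and 9.37 in control 3T3-L1s (log2 fold change -0.85, SE 0.17). *Ccl11*, which encodes the eosinophil chemokine eotaxin, read 4.08, 3.78 and 3.68 in MM-3T3-L1s and 4.76 and 4.48 in controls (log2 fold change -0.77, SE 0.17). Both passed the test of the study's methods too and were called without each of the arrays in turn. Of 10 measured preadipocyte and fibroblast markers, 7 had a mean above the background level and none was called. All exposed arrays lay below both controls for 5 of the 10, among them *Dlk1* (log2 fold change -0.45) and *Col3a1* (-0.40), and above both for 2, *Pdgfrb* (0.35) and *Thy1* (0.12), beside the 12.2% and 11.9% of all probe sets given above. The part of these markers in the values of *Postn* and *Ccl11* was not tested. Of the 13 IL-4 and IL-13 responsive genes, 7 had a mean above the background level. *Arg1*, *Chil3*, *Retnla* and *Mrc1*, which mark a response to IL-4 in macrophages, lay below that level on every array. *Ccl17*, *Ccl22* and *Ccl24*, chemokine genes of the same list, lay above it on every array, with means of 5.13, 3.97 and 4.66.

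Few markers of other cell types lay above the background level. Of 13 macrophage markers 4 had a mean above the background level, *Cd14*, *Lyz2* (mean 5.45), *Fcgr1* (4.41) and *Ptprc* (4.11). Of the 13, only *Cd14* was called, higher (7.13, 7.29 and 7.15 in MM-3T3-L1s, 6.10 and 6.62 in control 3T3-L1s). *Adgre1*, a defining macrophage marker, was below background throughout. The mean over the macrophage list was 3.55 to 3.70 in the MM.1S arrays and 3.32 to 3.41 in the control arrays. That of the plasma and B cell list was also higher, at 3.62 to 3.73 and 3.54 to 3.60. The means of the lymphocyte, mast cell and granulocyte, and endothelial lists overlapped between the groups. The median over the smell, pheromone and taste receptor genes, given above, was also higher in every exposed array. The part of these differences in the results was not tested. Of 11 lymphocyte markers 1 lay above background, of 12 plasma and B cell markers 3, of 12 mast cell and granulocyte markers 3 and of 10 endothelial markers 1, and none in these lists was called. In RNA from whole cultures, fewer cells of a kind and less RNA per cell cannot be told apart.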

How the data were processed

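RNA from 5 samples was hybridised to Clariom S Mouse arrays (Affymetrix). Partek Genomics Suite v. 6.17.0918 was the authors' software for the scans, with RMA named in the submitters' processing notes, and the deposited values are log2 signals per probe set. RMA shares information between arrays, and whether other arrays were normalized with these is not given in the sources used here. All 22206 probe sets were tested without a filter. The probe annotation gave 19572 of them 1 symbol, and 2634 are unnamed here.

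The comparison used limma 3.58.1 (lmFit, then eBayes) under R 4.3.3 (two-sided, 3 residual and 2.79 prior degrees of freedom, Benjamini-Hochberg over all probe sets), tested beforehand on simulated data. As an alternative, the one-way ANOVA of the methods was run probe set by probe set, and is called the test of the study's methods. With 3 arrays against 2, the smallest two-sided p of an exact permutation test is 0.1, so none is given. The genes, lists and rules were chosen with earlier results of these data known. The rule named the 10 genes, their receptor partners, called genes of the lists, and the nearest genes by pattern. Other genes named beside them were chosen after their values were seen.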

Additional observations from a re-analysis of the deposited data

How the results depend on the processing

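The alternatives were the test of the study's methods, an intensity trend with a robust prior, probe sets above the background level only, quantile normalization once more, median centring, replicate number as a block, a fold-change limit of 1.8 and leaving out each array. Each of the 10 genes had 1 probe set, so the other choice of probe set could not be run. Those for the signaling, inhibitor, processing and responsive lists were added after the data were seen. Of the 10 genes, none was called higher under any alternative. The 1 lower call became 0 with the test of the study's methods and 0 to 1 without single arrays. Only 7 alternatives could move an estimate on their own, both scalings and the 5 fits without an array, and the log2 fold change of *Il18* was -1.13 to -0.63 in these. The labels give both groups replicates 1 and 2 but no pairing, and the deviations of equally numbered arrays correlated at -0.027 and 0.060. With the replicate block, which leaves MM.1S replicate 3 without a partner and so without weight, *Il18* was still called at a log2 fold change of -0.96, and the signaling list had 1 lower gene in place of 0. The sign of *Il34* turned without MM.1S replicate 3 and without control replicate 2, those of *Il13ra1* and *Il10rb* without MM.1S replicate 1, that of *Il18bp* without control replicate 1 and that of *Il15ra* without control replicate 2. None of these 5 genes was called.

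For the other ligands and receptors, the 1 higher gene became 0 with the methods' test, above background only and at the 1.8 limit, and 0 to 1 without single arrays, where 0 to 1 were lower. The 1 lower inhibitor became 0 with the methods' test, after quantile normalization and at the 1.8 limit, and 0 to 1 without single arrays, as did the 0 lower signaling and processing genes. IL-17 responsive genes called higher were 3 with the methods' test and 1 to 6 without single arrays. IL-4 and IL-13 responsive genes called lower were 1 at the 1.8 limit. Over all probe sets, 202 were higher and 320 lower. These counts were 104 and 180 with the methods' test, 42 and 93 at the 1.8 limit, 121 higher above background only, and 216 to 352 higher and 301 to 415 lower without single arrays.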
